A study of Mus musculus with 2 samples.

Results

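The histone genes of mouse induced pluripotent stem cells (iPSCs) were taken as all genes whose symbols start with Hist1h to Hist4h, H2af, H3f3 or H1f in the gene tables of both libraries. The rule found 85 of 27998 genes. Of these, 69 carry a Hist symbol, the name form of the clustered, replication-dependent genes, and 16 are replacement genes with a symbol starting with H2af, H3f3 or H1f. The symbol Hist2h2bb stands for 2 gene identifiers, which were kept apart, and H3f3aos is an antisense RNA that the symbol rule takes in. Among the Hist entries, Hist1h2al is annotated as a processed pseudogene and a Hist2h2bb identifier as a long noncoding RNA. These entries stay in the counts and shares below.

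The study deleted Srf, the gene of serum response factor, in mouse iPSCs and compared them with unrecombined cells by droplet single-cell RNA sequencing. The knockout library (SRFΔ/Δ, KO) and the wild-type library (SRFf/f, WT) both came from iPSCs grown in medium with serum. Each genotype had 1 library, so no difference between genotypes has a replicate check. All intervals below are exact 95% intervals that cover counting error only. Srf itself had 3 UMIs (unique molecular identifiers, counted molecules) in KO cells with 1 to 10% mitochondrial UMIs and 202 UMIs in the matching WT cells. The level was 0.165 CPM (UMIs per 1000000 UMIs of all genes in those cells) in KO (0.0340 to 0.481) and 8.67 in WT (7.51 to 9.95). The deleted part of Srf is not given in the sources used here.

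Cells with at least 1000 detected genes were split by the share of UMIs from genes with an mt- symbol. Between 1 and 10% lay 732 KO and 894 WT cells, with 18215203 and 23310861 UMIs in all and medians of 24416.5 and 26663 UMIs a cell. Under 1% lay 244 KO cells, with a median of 8632 UMIs, and 16 WT cells, with a median of 16568.5. Values for WT cells under 1% therefore rest on few cells and 286036 UMIs. The pluripotency list (Pou5f1, Sox2, Nanog and 9 others) reached 10121 CPM in KO and 13970 in WT cells with 1 to 10%. A list of 13 fibroblast markers stood at 28.7 and 29.7 CPM there. Cells with at least 0.5% of UMIs from that list, 21 KO and 9 WT cells, were set apart as fibroblast-like. A list of 10 primitive endoderm markers stood at 354 CPM in KO and 12.5 in WT cells with 1 to 10%, so the KO cells include some that express it. The libraries shared 2 cell barcodes.

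Replication-dependent histone genes are short, mostly without introns, and are transcribed mainly in S phase, when new DNA needs packaging. Their mRNAs end in a conserved stem-loop bound by SLBP in place of a poly(A) tail, so methods that prime on poly(A) capture them poorly. Replacement histones, such as H2A.Z and the H3 variant encoded by H3f3a and H3f3b, are made from polyadenylated mRNAs through the whole cell cycle and are placed into chromatin outside replication.

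The stem-loop was searched in annotated transcripts (GENCODE M21, build GRCm38) by the consensus of the histone 3′ stem-loop, with all 6 outer base pairs formed. Identifiers of 83 of the 85 members were found there. An annotated transcript held the stem-loop in 44 of 67 Hist genes (65.7%), in 1 of 16 replacement genes (6.25%) and in 0.656% of 21497 protein-coding genes. A loop beyond the annotated end is missed by this search, so a gene without a match may still have one. The polyadenylation signal AATAAA lay in the last 50 bases of 20.9% of Hist genes, 56.3% of replacement genes and 66.2% of all protein-coding genes. A transcript of a single exon was annotated for 95.5%, 56.3% and 11.9% of them. The windows below show the stem-loop, in capitals, in the member with most Hist UMIs, in the near-copy of it, in 3 other Hist genes named below and in H2afx, the replacement gene that holds it. All are 30 bases, written 5′ to 3′ on the gene's strand.
Hist1h2ap: aaaaaaaaaaaGGCTCTTTTCAGAGCCatc
Hist1h2ao: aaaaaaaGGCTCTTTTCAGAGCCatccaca
Hist1h4i: acttaaaGGCCCTTTTTAGGGCCaccacaa
Hist1h1c: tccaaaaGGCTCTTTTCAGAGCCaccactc
Hist3h2ba: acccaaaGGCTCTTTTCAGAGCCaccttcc
H2afx: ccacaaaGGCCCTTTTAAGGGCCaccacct
The windows lie at chr13:21833026-21833055 (minus strand), chr13:21810891-21810920 (plus), chr13:22040959-22040988 (minus), chr13:23739505-23739534 (plus), chr11:58949342-58949371 (plus) and chr9:44335233-44335262 (plus), in that order. The annotated transcript ends 3 bases after the loop in Hist1h2ap and 31 bases after it in Hist1h2ao. It runs on for 330 bases in Hist1h4i, 840 in Hist1h1c, 169 in Hist3h2ba and 822 in H2afx.

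Hist1h2ap (ENSMUSG00000094777) is a single-exon gene of 482 bases for a core histone H2A at chr13:21833026-21833507. The longest run of A in it is 12 bases, directly before the stem-loop. A run of at least 10 A in the last 150 bases was found in 2 of the matched Hist genes, Hist1h2ap and Hist1h2ao, in 0 replacement genes and in 4.40% of protein-coding genes. Every 50-base stretch of the last 150 bases of Hist1h2ap also occurs in Hist1h2ao, and 18 other genes, Hist1h2ao included, hold at least 1 of these stretches. Hist1h2ao was given 16 UMIs in KO and 12 in WT cells with 1 to 10%. How shared reads were counted is not given in the sources used here, so UMIs under the name Hist1h2ap cannot be tied to that locus alone.

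In cells with 1 to 10% mitochondrial UMIs, replacement genes made up most histone UMIs. The summed Hist genes differed between the libraries through the UMIs counted under 1 gene name, Hist1h2ap. The 16 replacement genes held 126125 UMIs in KO and 158857 in WT, or 6924 and 6815 CPM. The log2 ratio of KO over WT was 0.02 (0.01 to 0.03), which turned to -0.09 with TMM factors and to -0.06 with the median of ratios. The 69 Hist genes held 18761 UMIs in KO and 10255 in WT, or 1030.0 and 439.9 CPM, a log2 ratio of 1.23 (1.19 to 1.26). Without Hist1h2ap, the other 68 Hist genes held 4007 and 5004 UMIs, or 220.0 and 215 CPM, and the log2 ratio was 0.04 (-0.03 to 0.10). These values are shares of captured UMIs and are not scaled by gene length.

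Hist1h2ap had 14754 UMIs in KO and 5251 in WT cells with 1 to 10%, which is 810.0 and 225 CPM. The log2 ratio was 1.85 (1.80 to 1.89), a 3.60-fold higher level in KO. This ratio was the 27th from the top of the 6559 genes whose mean over both libraries reached 10 CPM. In WT the gene held about as many UMIs as the 68 other Hist genes summed, and in KO several times as many. With TMM scaling the ratio was 1.74 and with the median of ratios 1.76.

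**Figure D1:**
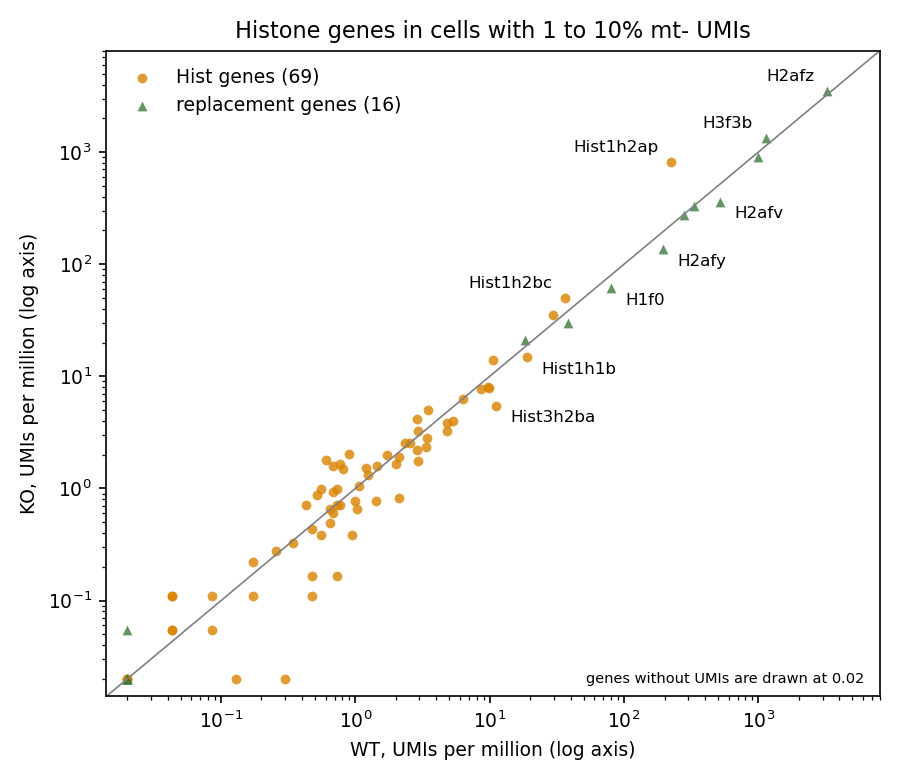
Levels of the 85 histone genes in cells with 1 to 10% mitochondrial UMIs, WT on the x axis and KO on the y axis, in CPM on log axes, with the line of equality. Hist1h2ap, at 225 in WT and 810.0 in KO, stands off the line, while H2afz lies close to it at the top and most Hist genes lie below 10 on both axes.

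By histone type, the Hist genes for H2A without Hist1h2ap stood at 41.9 CPM in KO and 42.5 in WT (18 genes). Those for H2B stood at 72.2 and 66.4 (19 genes), and those for H4 at 50.7 and 45.9 (13 genes). Those for the linker histone H1, which binds DNA between nucleosomes, stood at 42.8 and 46.3 (6 genes), and those for H3 at 12.2 and 13.5 (12 genes). The log2 ratios lay between -0.14 (-0.40 to 0.11) for H3 and 0.14 (0.02 to 0.27) for H4. All lay between the 10th and 90th percentiles of all genes with at least 10 CPM, -0.30 and 0.50. The median of those genes was 0.09. The H1 ratio, -0.11 (-0.25 to 0.02), had an interval below that median.

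Besides Hist1h2ap, 4 Hist genes reached a mean of 10 CPM. Hist1h2bc, an H2B gene, had 910 UMIs in KO and 852 in WT (49.96 and 36.5 CPM), a log2 ratio of 0.45 (0.31 to 0.59). Hist1h1c, an H1 gene, had 255 and 248 UMIs (14.0 and 10.6 CPM), a log2 ratio of 0.40 (0.14 to 0.65). Hist1h4i, an H4 gene, had 636 and 686 UMIs (34.9 and 29.4 CPM), a log2 ratio of 0.25 (0.09 to 0.40). In these 3 genes KO was the higher library. Hist1h1b, another H1 gene, was lower in KO, with 271 and 441 UMIs (14.9 and 18.9 CPM) and a log2 ratio of -0.35 (-0.57 to -0.13). None of the 4 passed a log2 ratio of 0.5 in either direction.

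The other 64 Hist genes had at most 398 UMIs over both libraries in kept cells, and 3 of them had none (Hist2h2aa2, Hist1h2br and Hist1h2bq). Every 50-base stretch of the last 150 bases of these 3 also occurs in another gene. Their lack of UMIs therefore does not show that they are silent. Together the 64 genes held 1935 UMIs in KO and 2777 in WT cells with 1 to 10%. The level was higher in KO for 26 and lower for 35, and the interval of the log2 ratio lay above 0 for 6 and below 0 for 8. Among all 11562 genes below 10 CPM with 1 to 398 UMIs, it lay above 0 for 13.3% and below 0 for 5.2%, with a median of 28 UMIs a gene against 46 for the 61 Hist genes with UMIs. As precision grows with the UMIs, these shares are a coarse background. Among the 5 with most UMIs, Hist3h2ba, an H2B gene on chromosome 11, had 100 UMIs in KO and 260 in WT, a log2 ratio of -1.02 (-1.37 to -0.68). Its neighbour Hist3h2a, an H2A gene, had 142 and 229 UMIs, a log2 ratio of -0.33 (-0.65 to -0.03). Reads of Hist3h2a may be shared with Trim17, which overlaps it on the same strand. For Hist1h2ae (146 and 227 UMIs), Hist1h1e (139 and 199) and Hist1h2ak (114 and 148), the intervals held 0, with log2 ratios of -0.28, -0.16 and -0.02. The last 150 bases of Hist1h1e lie inside the annotated Hist1h2be, and 74.3% of those of Hist1h2ak occur in Hist1h2ao, so these counts are uncertain.

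Hist genes with many UMIs occurred with and without a stem-loop in the annotated transcript. Some annotated transcripts without it are short, such as 312 bases in Hist1h4k and 393 in Hist1h2ak. The loop may lie beyond their annotated ends, so these counts do not show that the genes lack it. Without Hist1h2ap, 14 of 43 Hist genes with the stem-loop and 6 of 23 without it had at least 100 UMIs in cells with 1 to 10% of both libraries. The genes with it summed to 2363 UMIs in KO and 3067 in WT, and those without it to 1588 and 1851.

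Among replacement genes of the H2A family, H2afz had the most UMIs of all histone genes. H2afz (ENSMUSG00000037894, 5 exons, chr3:137864487-137866922, plus strand) encodes H2A.Z, a variant found at promoters and enhancers. It had 63270 UMIs in KO and 75486 in WT cells with 1 to 10% (3473 and 3238 CPM), a log2 ratio of 0.10 (0.09 to 0.12). H2afv encodes the second H2A.Z protein and was lower in KO, with 6589 and 12051 UMIs (362 and 517 CPM) and a log2 ratio of -0.52 (-0.56 to -0.47). The H2A.Z gene with more UMIs was thus close to equal in the libraries, and the one with fewer was lower in KO.

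H2afx, whose product is phosphorylated around DNA breaks, had 5985 and 7765 UMIs (329 and 333 CPM), a log2 ratio of -0.02 (-0.07 to 0.03). H2afj had 4992 and 6475 UMIs (274 and 278 CPM), a log2 ratio of -0.02 (-0.07 to 0.03). Neither differed by more than counting error. The macroH2A genes, whose long H2A variants are enriched on the inactive X chromosome, were measured as well. H2afy was lower in KO, with 2465 and 4526 UMIs (135 and 194 CPM) and a log2 ratio of -0.52 (-0.59 to -0.45). H2afy2 had 380 and 423 UMIs (20.9 and 18.1 CPM) and a log2 ratio of 0.20 (-0.0025 to 0.40), an interval that holds 0.

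H3f3a and H3f3b encode the same H3 variant protein. H3f3b had 24274 UMIs in KO and 26356 in WT cells with 1 to 10% (1333 and 1131 CPM), a log2 ratio of 0.24 (0.21 to 0.26). H3f3a had 16521 and 23021 UMIs (907 and 988 CPM), a log2 ratio of -0.12 (-0.15 to -0.09). The log2 ratios of the pair thus had opposite signs, and both were smaller than 0.5. H3f3a overlaps H3f3aos and Gm17275 on the other strand, and the use of strand in counting is not given in the sources used here.

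The replacement linker histones were lower in KO. H1f0, which accumulates in resting and differentiating cells, had 1107 UMIs in KO and 1870 in WT cells with 1 to 10% (60.8 and 80.2 CPM), a log2 ratio of -0.40 (-0.51 to -0.29). H1fx had 541 and 884 UMIs (29.7 and 37.9 CPM), a log2 ratio of -0.35 (-0.51 to -0.20). The remaining replacement members were at or near 0. H3f3aos had 1 UMI in kept cells, and H1foo, H1fnt, H2afb1, H2afb2 and H2afb3, which are known as oocyte or testis genes, had none.

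Across the 6559 genes whose mean reached 10 CPM in these cells, 14.2% passed a log2 ratio of 0.5 in either direction, 10.2% upwards in KO and 3.96% downwards. Of the 85 histone genes, 15 reached that level, and 3 of the 15 passed the ratio. Hist1h2ap was the one above, and H2afv and H2afy were the ones below. The median log2 ratio was 0.40 for the 5 Hist genes and -0.07 for the 10 replacement genes, against 0.09 for all 6559 genes. TMM factors shifted log2 ratios of KO over WT by 0.11 downwards in these cells, so members with a ratio near 0 change sign with the scaling.

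**Figure D2:**
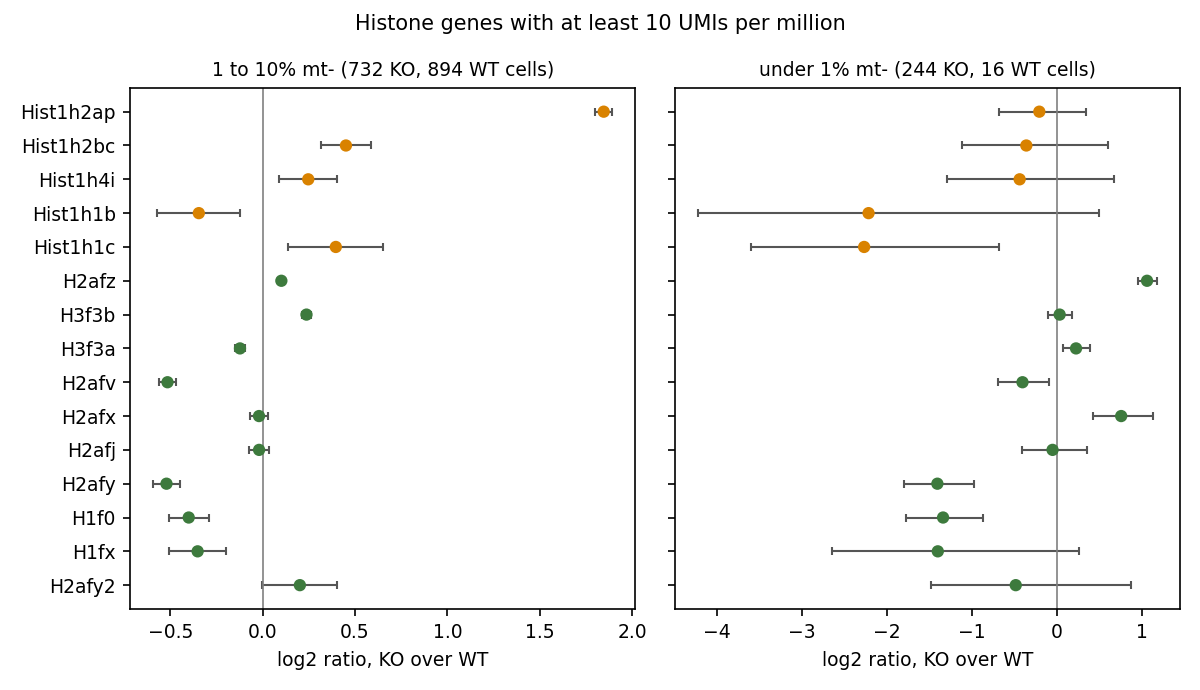
Log2 ratios of KO over WT for the 15 histone genes with at least 10 CPM, with 95% counting intervals, in cells with 1 to 10% (left) and under 1% (right) mitochondrial UMIs. Hist genes are orange and replacement genes green. On the left Hist1h2ap stands apart at 1.85. On the right, where WT has 16 cells, it lies at -0.20 and H2afz at 1.06.

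In KO, the cells under 1% mitochondrial UMIs held a lower level of Hist1h2ap and a higher level of H2afz than the cells with 1 to 10%. There, Hist1h2ap had 323 UMIs under 1%, or 114 CPM, against 810.0 in KO cells with 1 to 10%, a log2 ratio of -2.83 (-3.00 to -2.68). In the 16 WT cells it had 37 UMIs, or 129 CPM, against 225, a log2 ratio of -0.78 (-1.31 to -0.34). Of these 37 UMIs, 27 came from the 3 WT cells between 0.5 and 1% (329 CPM) and 10 from the 13 WT cells under 0.5% (49.0 CPM, 23.5 to 90.2). Between KO and WT under 1%, the log2 ratio was -0.20 (-0.68 to 0.34), so a difference was not detectable at this depth. Under 0.5% KO stood at 80.2 CPM (68.9 to 92.9), above the WT value there, so the sign turned with the limit while the intervals overlapped. The other 68 Hist genes were also lower under 1% in KO, with 123 against 220.0 CPM and a log2 ratio of -0.83 (-0.995 to -0.68). The summed Hist H1 genes were at 10.2 against 42.8 CPM, a log2 ratio of -2.05 (-2.66 to -1.54).

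Replacement genes were higher under 1% in KO, with 9055 against 6924 CPM and a log2 ratio of 0.39 (0.37 to 0.41). H2afz stood at 4903 against 3473 CPM, a log2 ratio of 0.50 (0.47 to 0.52). H3f3a stood at 1410 against 907, a log2 ratio of 0.64 (0.59 to 0.69). In the 16 WT cells H2afz was lower under 1%, at 2346 against 3238 CPM, a log2 ratio of -0.46 (-0.58 to -0.36). In KO, H2afy and H1fx were also lower under 1%, with log2 ratios of -0.69 (-0.89 to -0.50) and -1.79 (-2.47 to -1.23). Of 13 members with at least 10 CPM in this comparison within KO, 4 passed a log2 ratio of 0.5, with H3f3a above it and Hist1h2ap, H1fx and H2afy below it. Of all genes, 56.9% passed it, 21.2% upwards and 35.7% downwards, so most genes differed between these cells by that measure.

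Between the libraries under 1%, the summed replacement genes had a log2 ratio of KO over WT of 0.49 (0.42 to 0.56), and of 0.02 (-0.07 to 0.11) without H2afz. H2afz stood at 4903 CPM in KO and 2346 in WT, a log2 ratio of 1.06 (0.95 to 1.18). H2afx stood at 429 and 252, a log2 ratio of 0.76 (0.42 to 1.13). H2afy (83.7 and 220.3) and H1f0 (73.8 and 185) were lower in KO, with log2 ratios of -1.40 (-1.80 to -0.97) and -1.34 (-1.77 to -0.86). In this comparison 7 of 15 members passed a log2 ratio of 0.5, 2 upwards and 5 downwards, against 55.5% of all genes (17.5% and 38% of them). The summed Hist genes had a log2 ratio of -0.66 (-0.95 to -0.35), and its sign turned when the 2% of cells with most UMIs were left out (0.39), when primitive endoderm list cells were left out (0.34) or at a limit of 0.5% (0.12).

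Other RNAs also moved with the mitochondrial share. Malat1, a nuclear long noncoding RNA, stood at 1503 CPM in KO cells under 1% against 8505 in KO cells with 1 to 10%. In WT it stood at 10324 under 1% against 5916. The low Hist1h2ap level thus came with low Malat1 in KO cells under 1% and with high Malat1 in WT cells under 1%. The part that Malat1, depth or the mitochondrial share play in the Hist1h2ap levels was not tested.

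Within KO, the Hist1h2ap level followed the mitochondrial share in steps. It was 80.2 CPM in the 197 cells under 0.5%, 232 in the 47 cells from 0.5 to 1% and 667 in the 56 cells from 1 to 2%. From 2% on it was level, between 789 and 858 in 4 ranges up to 10%, and it was 149 in the 71 cells above 10%. In WT the ranges with at least 50 cells between 1 and 10% gave 161 to 239.9 CPM, so in each of these ranges KO was the higher library. Replacement genes ran the other way over the same ranges in KO, from 9328 CPM under 0.5% to 6039 between 6 and 10%.

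**Figure D3:**
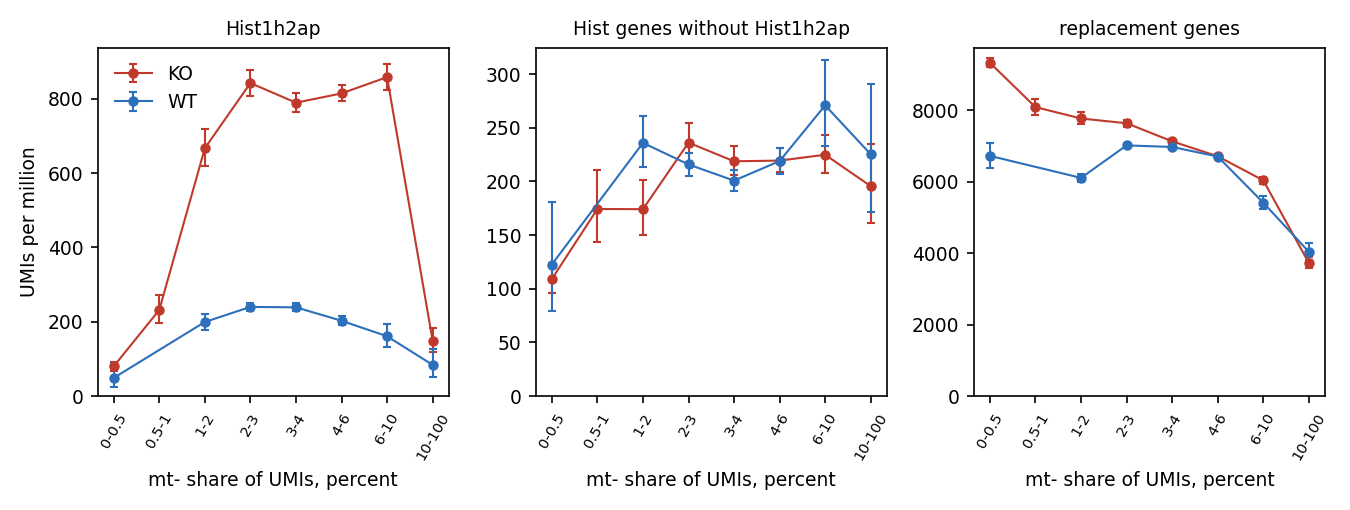
CPM of Hist1h2ap (left), the other Hist genes summed (middle) and the replacement genes summed (right) by the mitochondrial share of a cell's UMIs, for KO and WT, with 95% counting intervals. Ranges with fewer than 10 cells are not drawn. The KO curve of Hist1h2ap climbs from 80.2 under 0.5% to between 789 and 858 from 2 to 10%, while the WT curve stays under 250 and the other Hist genes lie close together in both libraries.

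By depth within the cells with 1 to 10%, the KO level was lowest in the shallowest cells and similar in the others. Hist1h2ap stood at 355 CPM in the 67 KO cells with under 10000 UMIs, at 840.2 in 156 cells from 10000 to 20000, at 872 in 309 cells from 20000 to 30000 and at 766 in 200 deeper cells. The matching WT values were 186, 205, 233 and 225. In each depth range the KO value was above the WT value.

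The histone genes stood in another order of level in the fibroblast-like cells. Hist1h2bc was the leading Hist gene there, with 380 UMIs in 21 KO cells and 97 in 9 WT cells (624 and 710.3 CPM), against 49.96 and 36.5 in the cells with 1 to 10%. Hist1h1c stood at 141 and 139 CPM. Hist1h2ap had 2 UMIs in KO and 0 in WT, where 3 counts would be 21.97 CPM. H2afj stood at 531 and 937 CPM and H2afz at 253 and 198, so H2afj was above H2afz in these cells and far below it in the iPSCs.

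To compare cells, each was thinned at random to 5000 UMIs, which left out 7 of 732 KO and 5 of 894 WT cells with 1 to 10% and 17 of 244 KO cells under 1%. Hist1h2ap was found in 566 of 725 KO cells with 1 to 10% (78.1%, exact binomial 74.9 to 81.0) and in 491 of 889 WT cells (55.2%, 51.9 to 58.5). Without thinning the shares were 88.1% and 81.9%. Under 1% in KO it was found in 54 of 227 cells (23.8%, 18.4 to 29.9). In the fibroblast-like cells it was found in 1 of 20 KO cells and 0 of 9 WT cells, with median depths of 28334 and 10217 UMIs before thinning.

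The mean over thinned cells with 1 to 10% was 4.10 Hist1h2ap UMIs in KO and 1.08 in WT, with medians of 3 and 1 and 90th percentiles of 10 and 3. The spread in KO was wide for that mean. The variance over the mean (Fano factor) was 3.85, against a median of 1.34 in 74 genes of like mean, of which 3 had a higher value. The gene was at 0 in 21.9% of KO cells, against a median of 4.21% in those genes. In WT the Fano factor was 1.64, against a median of 1.11 in 401 genes of like mean, of which 14 had a higher value.

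**Figure D4:**
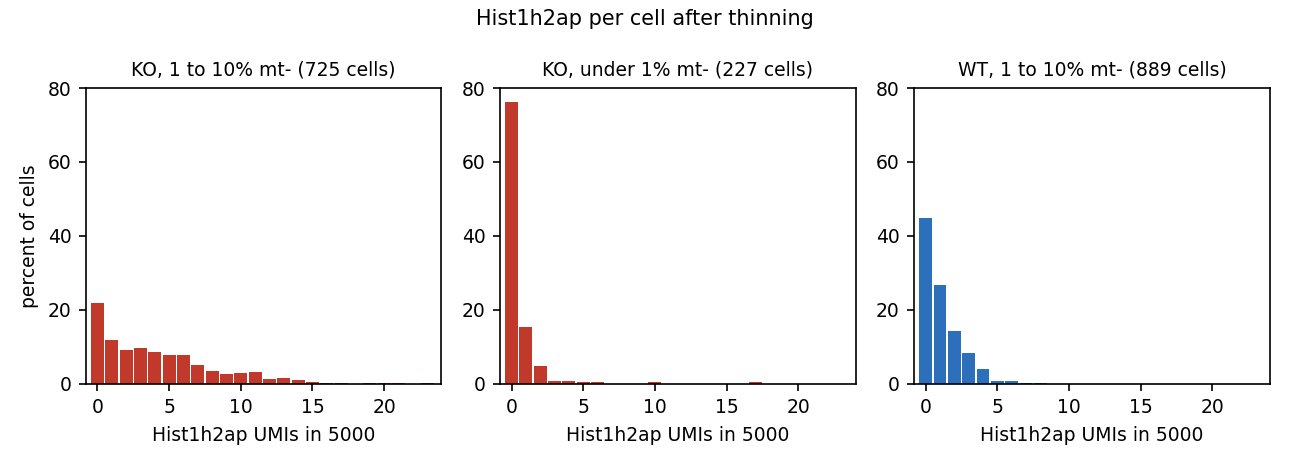
Share of cells by Hist1h2ap UMIs after thinning each cell to 5000 UMIs, for KO and WT cells with 1 to 10% and KO cells under 1% mitochondrial UMIs. The KO cells with 1 to 10% spread from 0 to 23 UMIs with a median of 3, while the KO cells under 1% are mostly at 0 and the WT cells lie between 0 and 8.

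H2afz was found in 99.2% of KO and 99.6% of WT thinned cells with 1 to 10%, with means of 17.5 and 15.8 UMIs. Its Fano factor was 4.04 in KO and 2.82 in WT, against medians of 1.58 in 52 and 1.44 in 43 genes of like mean. Only 1 of those genes in KO and 4 in WT had a higher value. H3f3a, by contrast, had Fano factors of 1.45 and 1.31, near the medians of 1.47 and 1.35 for its level. H2afv was found in 80.7% of KO and 90.9% of WT cells. H2afx was found in 69.5% and 74.5% and H2afj in 71.0% and 68.5%. The lowest shares among the replacement genes with at least 10 CPM were 10.2% and 8.1%, for H2afy2.

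Over all Hist genes, 629 of 725 KO cells (86.8%, 84.1 to 89.1) and 716 of 889 WT cells (80.5%, 77.8 to 83.1) had at least 1 UMI after thinning. Without Hist1h2ap the shares were 58.2% in KO and 64.3% in WT. Unthinned, 96.0% of KO and 98.1% of WT cells had a Hist UMI. Every thinned cell of both libraries with 1 to 10% held a UMI of a replacement gene.

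The link of histone UMIs to S phase was described with Mcm5, a subunit of the replicative helicase, and Pcna, the sliding clamp of DNA polymerase. Across thinned cells of 1 library, Pearson correlations were taken on log2(UMIs + 1). The points share a library and a fixed depth. Summed Hist UMIs had r = 0.04 with Mcm5 plus Pcna in 725 KO cells and 0.02 in 889 WT cells with 1 to 10%, and Spearman values were 0.04 and 0.03. Hist1h2ap alone had r = 0.05 and 0.04. Replacement genes had r = 0.10 and 0.08, and H2afz had r = 0.14 in KO and 0.07 in WT. In KO cells under 1%, r was -0.12 for Hist genes and 0.00 for H2afz over 227 cells.

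An r of at least 0.1 with Mcm5 plus Pcna was reached by 1.15% of 6633 genes in KO and 0.709% of 6348 genes in WT cells with 1 to 10%, and by 6.84% in KO cells under 1%. Of the members named, H2afz in KO cells with 1 to 10% was the 1 past it. Mcm5 and Pcna themselves had r = 0.11 in KO and 0.05 in WT with each other, so at about 1 UMI a cell for the pair this marker sorts cells coarsely. Correlations of this size in sparse counts are no finding of a link or of its absence.

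Against a broader list of 19 S phase genes without Slbp, H2afz had r = 0.40 in KO and 0.24 in WT, with Spearman values of 0.28 and 0.16. An r of at least 0.1 with that list was reached by 5.61% of genes in KO and 3.09% in WT. Against 16 G2 and M phase genes H2afz had r = 0.22 and 0.11, but Spearman values of 0.03 and -0.02, so that relation rests on the measure. H2afx had r = 0.17 in KO and 0.19 in WT with these genes, and Spearman values of 0.14 and 0.18. The share of genes at 0.1 or more with the G2 and M list was 2.85% and 1.83%. Hist genes had 0.06 and -0.01 with the S phase list and -0.21 and -0.19 with the G2 and M list. Spearman values with the G2 and M list were -0.24 and -0.19, and Hist1h2ap alone had r = -0.13 and -0.15. The 5th percentile of single genes with that list was -0.070 in KO and -0.055 in WT, and these r values lay below it. Those single genes went down to 10 CPM. The Hist sum had means of 5.22 thinned UMIs a cell in KO and 2.23 in WT, and H2afz had 17.5 and 15.8. Correlations shrink in sparse counts. Neither this percentile nor the shares of genes at 0.1 or more are therefore a background of like level. What underlies the negative r values was not tested. The sum of replacement genes had r = 0.32 in KO and 0.17 in WT with the S phase list, and 0.10 and 0.02 without H2afz.

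Means were also taken in cells grouped by their Mcm5 plus Pcna UMIs. In KO cells with 1 to 10%, the mean of Hist1h2ap was 3.89 UMIs (3.65 to 4.13) in 266 cells with 0 and 4.57 (4.13 to 5.04) in 86 cells with 3 or more. In WT it was 0.99 (0.90 to 1.10) in 373 cells and 1.08 (0.86 to 1.35) in 73 cells. Replacement genes went from 34.0 (33.3 to 34.8) to 37.8 (36.5 to 39.1) in KO and from 32.4 (31.8 to 33.0) to 34.1 (32.8 to 35.4) in WT. The S phase list without Slbp, Mcm5 and Pcna went from 7.03 to 8.85 in KO and from 7.07 to 9.12 in WT. In KO cells under 1%, Hist1h2ap went from 0.79 (0.59 to 1.03) in 66 cells to 0.42 (0.25 to 0.66) in 43 cells. The other Hist genes went from 0.83 (0.63 to 1.08) to 0.40 (0.23 to 0.63) there. Replacement genes stood at 45.3 and 45.1 and that S phase list at 9.55 and 10.3.

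**Figure D5:**
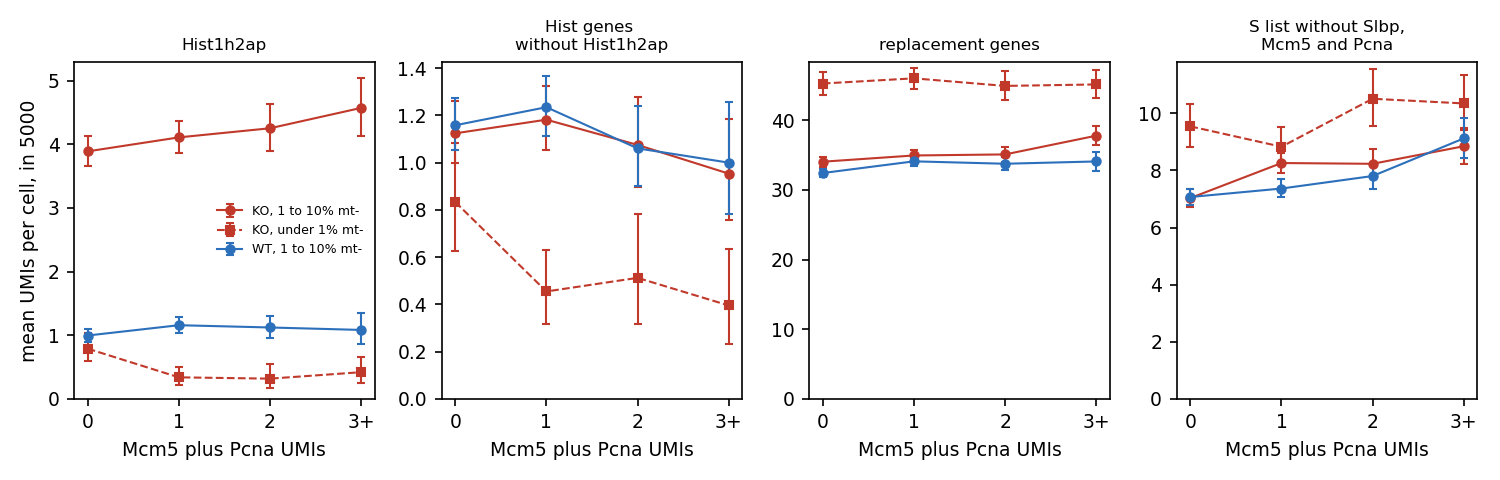
Mean UMIs per cell, after thinning to 5000, of Hist1h2ap, the other Hist genes, the replacement genes and the S phase list (without Slbp, Mcm5 and Pcna), in cells with 0, 1, 2 and 3 or more UMIs of Mcm5 plus Pcna, with 95% counting intervals. In each group of cells with 1 to 10%, Hist1h2ap lies between 3.89 and 4.57 in KO and between 0.99 and 1.16 in WT.

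Cell cycle lists were at similar levels in both libraries in cells with 1 to 10%. Summed over 20 S phase genes, the level was 1898 CPM in KO and 1801 in WT cells with 1 to 10%, a log2 ratio of 0.08 (0.06 to 0.10). Of the 19 S phase and 16 G2 and M genes with at least 10 CPM, 0 passed a log2 ratio of 0.5 in either direction. Between the libraries under 1%, where 17.5% of all genes passed it upwards and 38% downwards, 12 of 19 S phase genes passed upwards in KO and 1 downwards, and 2 of 16 G2 and M genes upwards and 6 downwards. The largest log2 ratios of these 19 genes in each direction were Rrm1 (ribonucleotide reductase) at 1.64 (0.27 to 4.16) and Dtl at -2.25 (-3.10 to -1.31).

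Genes that make and process histone mRNA, 16 in the list, held 14 with at least 10 CPM in cells with 1 to 10%. Of these, 1 passed upwards in KO and 0 downwards, and the median log2 ratio was 0.17 against 0.09 for all genes. The 1 was Eri1, an exonuclease that trims and degrades histone mRNA at the stem-loop, with 689 UMIs in KO and 535 in WT and a log2 ratio of 0.72 (0.56 to 0.89). Of 21 histone chaperones, which carry and deposit histones, 1 passed upwards and 0 downwards, with a median of 0.09. It was Hjurp, the chaperone of the centromeric H3 variant, with 820 and 718 UMIs and a log2 ratio of 0.55 (0.40 to 0.69).

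In KO cells under 1% against 1 to 10%, 5 of 21 chaperones passed a log2 ratio of 0.5 upwards and 6 downwards, against 21.2% and 35.7% of all genes, so the chaperones were near the background. Hat1, which acetylates new histone H4, was at 1.21 (1.10 to 1.31) and Rbbp4 at 1.02 (0.88 to 1.14). Ubn2 was at -3.47 (-5.24 to -2.37) and Hjurp at -2.79 (-3.59 to -2.16). Of 13 processing genes, 3 passed upwards and 2 downwards, read against the same shares. Among them were Cpsf3, the nuclease that cuts pre-mRNA ends, at 1.14 (0.84 to 1.41) and Upf1 at -1.48 (-2.02 to -1.02). Slbp, the stem-loop binding protein, was at 0.51 (0.38 to 0.64).

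Outside the members, the genes closest to summed Hist UMIs across cells with 1 to 10% were Rbm39, Jund, Ftl1, Mid1, Wasf2, Pop7, Alkbh1, Bag1, Rps19 and Eif1b. They were ranked by the smaller of the KO and WT correlations over 2096 genes with at least 50 CPM in both libraries. The first, Rbm39, had r = 0.17 in KO and 0.12 in WT, and Mid1 had 0.23 and 0.09, all weak. For summed replacement UMIs the closest were Ptma (0.53 in KO and 0.30 in WT), Erh (0.40 and 0.30), Nhp2l1, Ran, Sub1, Sumo2, Dpy30, Dppa5a, Hmgb2 and Snrpd1. The replacement sum thus had the closer neighbours, but it also had more UMIs. Its means were 35.0 thinned UMIs a cell in KO and 33.3 in WT, against 5.22 and 2.23 for the Hist sum. As correlations shrink in sparse counts, these values do not compare the 2 classes.

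Promoters of 61 Hist and 13 replacement genes were found in RefSeq (GRCm38.p6), from 250 bases before to 50 after the start. CCAAT, on either strand, was in 85.2% of Hist promoters, 69.2% of replacement promoters and 37.9% of 27025 promoters of all genes. TATAAA was in 57.4%, 7.69% and 14.2%. The CArG box, the sequence serum response factor binds, was in 4 Hist promoters (Hist2h2ac, Hist1h2an, Hist1h2bp and Hist1h2bb; 6.56%), in 0 replacement promoters and in 1.57% of all. Hist1h2an (minus strand, from chr13:21787218) and Hist1h2bp (plus strand, from chr13:21787461) are annotated back to back. Their windows may overlap, so 1 site may be counted in both. Promoters of such neighbours are not independent, for any of the motifs. The promoter of Hist1h2ap was not analysed here. A match is a description of these letters and not of binding.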

How the data were processed

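The authors deposited whole-number UMI counts per gene and cell from 10x Genomics Chromium libraries, 1 per genotype, in integer matrices per the file headers. Cell Ranger 2.0.0, Seurat 3.1.1 and the build mm10 are named, with no role, per the submitters' processing notes. The rules for calling cells and for counting shared reads are not given in the sources used here. Counts were read with Python 3.11.15 and scipy 1.17.1. Cells with at least 1000 genes and at most 10% mt- UMIs were kept, fibroblast-like cells were set apart, and doublets were not called. UMIs were summed over cells and scaled to 1000000 UMIs (CPM). Log2 ratios had 0.5 counts added to each sum, with exact conditional 95% intervals, which like the exact Poisson and Clopper-Pearson intervals cover counting error only, and no test was made. TMM factors came from edgeR 4.0.16. Functions were tested on simulated data. Members with a mean of at least 10 CPM in cells with 1 to 10% were named, then the 5 Hist and 5 replacement members with most UMIs below that, the 10 nearest genes, and list genes past the log2 limit. Members without UMIs, Slbp and the genes shown by sequence were named after their values were seen. Members and lists were chosen with earlier results of these data known. Alternatives were other scalings, cell limits, mt- limits, thinning depths and members left out.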

Additional observations from a re-analysis of the deposited data

Results flagged for a closer look

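The cells above 10% mitochondrial UMIs, 71 in KO and 33 in WT, entered no comparison between the libraries in the report. In them Hist1h2ap had 87 UMIs in KO and 22 in WT (149 and 84.0 CPM), a log2 ratio of KO over WT of 0.81 (0.14 to 1.58). The interval covers counting error only. Both levels were lower than in cells with 1 to 10%, where KO stood at 810.0 and WT at 225 CPM. The other Hist genes summed to 196 and 225 CPM in these cells and the replacement genes to 3727 and 4039, so neither sum was higher in KO.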

How the results depend on the processing

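No paired analysis was possible because KO and WT came as 1 library apiece, and none could be left out. Over 18 results, 172 alternatives were computed: 114 stayed close, 49 moved and 9 turned sign. A log2 ratio counted as moved when it left the reported interval, a correlation when it changed by more than 0.1, a count at 1.5 times and the share difference when it changed by more than 5.19 percentage points, the summed half-widths of both intervals. The causes were not tested. With 16 WT cells under 1%, values there rest on few cells. The chromosome 8 setting, which kept cells with at most 1.2 times the WT median share of UMIs from that chromosome, was added after seeing the data. Above that limit lay 368 KO and 88 WT cells, so the libraries also differed in this share.

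For Hist genes, KO over WT in cells with 1 to 10%, the log2 ratio of 1.23 became 1.12 with TMM factors, 1.14 with the median of ratios and 0.0353 without Hist1h2ap. For replacement genes there, 0.023 became -0.0853 with TMM factors, -0.0632 with the median of ratios, 0.054 with cells weighted alike, -0.0053 with fibroblast-like cells, 0.0761 without primitive endoderm list cells, 0.00059 with a limit of 2%, -0.0429 at the usual chromosome 8 share and -0.0517 without H2afz. For Hist genes under 1%, -0.66 became -0.23 with TMM factors, -0.31 with cells weighted alike, 0.34 without primitive endoderm list cells, 0.39 without the 2% of cells with most UMIs, 0.12 and -0.0833 at limits of 0.5% and 2%, and -0.996 without Hist1h2ap. For replacement genes under 1%, 0.49 became 0.93 with TMM factors, 0.69 with the median of ratios, 0.34 with cells weighted alike and 0.0198 without H2afz. For Hist genes under 1% over 1 to 10% in KO, -2.12 became -1.82 with TMM factors, -2.35 with cells weighted alike, -1.98 at 2000 genes, -2.41 and -1.37 at limits of 0.5% and 2%, and -0.83 without Hist1h2ap. For replacement genes in that comparison, 0.39 became 0.69 with TMM factors, 0.48 with the median of ratios, 0.29 with totals without mt- and ribosomal protein genes, 0.42 with fibroblast-like cells, 0.36 without primitive endoderm list cells, 0.42 and 0.34 at limits of 0.5% and 2%, 0.43 at the usual chromosome 8 share and 0.27 without H2afz.

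At a minimum of 1 in place of 10 CPM, 15 of 46 members, in place of 3 of 15, passed a log2 ratio of 0.5 in cells with 1 to 10%. Under 1%, 27 of 36 members passed it in place of 7 of 15, and 4 of 9 at a minimum of 50. The share of all genes past the ratio was taken only at 10 CPM (14.2% and 55.5%). The counts at other minimums therefore have no background and are no result about histone genes. The share of cells with a Hist UMI, KO minus WT, was 6.22 percentage points, 14.7 when thinned to 2500 UMIs, 1.49 when thinned to 10000 UMIs (within that tolerance) and -2.06 without thinning. The correlation of replacement genes with Mcm5 plus Pcna of 0.10 in KO became 0.24 without thinning, 0.32 with the S phase list and -0.0077 without H2afz, and the 0.08 in WT became -0.0331 at 2500 UMIs. Hist1h2ap, KO over WT in cells with 1 to 10%, kept a log2 ratio between 1.74 and 1.87 under every alternative run. Its log2 ratio of cells under 1% over 1 to 10% in KO, -2.83, moved to -2.53 with TMM factors, -3.27 with cells weighted alike, -2.59 at 2000 genes and -3.30 and -1.63 at limits of 0.5% and 2%.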
